A study of Mus musculus with 6 samples.

Results

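Levels of 10 genes of heme and iron handling were followed in mouse kidney after its blood supply was clamped and released: Hmox1, Hmox2, Blvrb, Slc40a1, Tfrc, Fth1, Hpx, Slc11a2, Alas1 and Alas2. They were taken by their symbols in the array's annotation, each read from its probe set with the highest mean intensity over the 6 arrays among probe sets that name a single gene. All 10 were among the 18193 genes so measured, and 9 of them passed a filter on dim signals that left 12734 genes. Hpx was the member that did not pass. Mice were FVB/N males, 6 to 8 weeks old, weighing 22 to 26 g, and the labels name no drug for them but the anesthetic, pentobarbital. The pedicle of the kidney was closed on one side for 0, 45 or 60 min and then opened, so the 0 min kidneys are the controls. Kidneys were collected at day 1 or day 3. Each of the 6 combinations of clamp time and day had 1 array, and the labels do not say whether an array holds RNA of 1 animal or of several. There is therefore no spread between replicates of a combination. P-values for clamped against 0 min and for 60 against 45 min rest on the scatter left after clamp time and day are fitted. Those for day 3 against day 1 in clamped kidneys, and for the interaction of clamping with day, count each day's 45 and 60 min kidneys as replicates.

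Heme is made in mitochondria and cytosol, and the enzyme that begins its synthesis is encoded by Alas1 in most tissues and by Alas2 in red cell precursors. Heme oxygenases cut heme into biliverdin, carbon monoxide and iron, and the freed iron is either stored in ferritin or leaves the cell through ferroportin. Iron regulatory proteins bind hairpins in some messages when iron is low: they protect the Tfrc message and a form of the Slc11a2 message from decay, and they hold back translation of Fth1, Slc40a1 and Alas2. Tubules of the kidney take up filtered iron and heme proteins, and Hmox1 is widely known as a gene that responds to heme and oxidative stress in injured kidney. An expression array measures messages only, so control at translation leaves no trace in these values. In whole kidney, fewer cells of a type and less RNA per cell cannot be told apart.

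Windows of sequence from 250 bases before to 50 bases after a gene's start are in the RefSeq promoter table (build GRCm38.p6) for 7 of the 10 members, 13 windows in all. Hmox1, Slc40a1 and Slc11a2 have no entry in it. The windows of the paralogs Alas1 and Alas2 are shown because the messages of both varied widely between arrays, as described below. The array files carry no coordinates of their own. Searched on both strands were the GATA factor element AGATAA, the NRF-1 element (2 GCGC blocks around an A and a further base) and the core of the antioxidant response element, TGANNNNGC. Capitals mark the NRF-1 element in the Alas1 window (chr9:106247905-106248204, minus strand, 65.3% GC). Its first marked stretch matches only on the opposite strand to the gene, and the other matches on both strands. Capitals also mark the GATA factor element, on the opposite strand to the gene, in the Alas2 window (chrX:150547167-150547466, plus strand, 52.3% GC).
Alas1: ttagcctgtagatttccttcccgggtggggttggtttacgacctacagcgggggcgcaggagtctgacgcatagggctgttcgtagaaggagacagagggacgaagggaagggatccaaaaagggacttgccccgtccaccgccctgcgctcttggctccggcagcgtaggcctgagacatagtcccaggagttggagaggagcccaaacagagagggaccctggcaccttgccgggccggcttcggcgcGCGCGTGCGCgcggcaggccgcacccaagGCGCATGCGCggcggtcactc
Alas2: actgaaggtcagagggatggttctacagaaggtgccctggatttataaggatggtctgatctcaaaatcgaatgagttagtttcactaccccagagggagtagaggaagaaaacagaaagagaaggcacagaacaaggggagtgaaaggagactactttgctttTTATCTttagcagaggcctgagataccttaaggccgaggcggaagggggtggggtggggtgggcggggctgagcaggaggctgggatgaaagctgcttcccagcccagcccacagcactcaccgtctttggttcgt
Of 32851 promoter windows of the same length, 4.6% hold the NRF-1 element, 11.2% the GATA factor element and 41.3% the antioxidant response element core. Among members, the NRF-1 element was found only in windows of Alas1, the GATA factor element only in that of Alas2, and the antioxidant core in windows of Blvrb and Hpx. These matches describe letters, not binding.

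The arrays had been brought to one scale: the mean after trimming 2% at each end was 500.003 on all 6, and medians lay between 81.4 and 95.3. Havcr1, a marker of injured tubule used to check the labels, read 599, 4216 and 13011 at 0, 45 and 60 min of day 1 and 1242, 2548 and 11483 at day 3, in the order of the labelled clamp times on both days. For the beta-actin control the log2 signal at the 3' end minus that at the 5' end, which is larger in degraded RNA, was 0.77 at 0 min and 0.49 at 60 min of day 3, against 1.03 to 1.12 on the other 4 arrays. Its part in any result below was not tested. Differences are given on the log2(intensity + 16) scale, where 1 is about 2-fold in a bright gene and the change of a dim gene is understated.

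With limma's test, no member had a Benjamini-Hochberg adjusted p under 0.05. Over all genes the share past that threshold was 0% for clamped against 0 min and 0% for 60 against 45 min, likewise 0% when clamped kidneys of the later day were set against the earlier, and 0% for the interaction of clamping with day (the clamp difference at day 3 minus that at day 1). The first of these counts was 200 genes without the 45 min array of day 3 and 75 with a robust variance trend, and no member was among them. Over the 9 members, adjusted p ran from 0.349 to 0.9695 for clamped against 0 min and from 0.358 to 0.986 for 60 against 45 min. At an unadjusted limma p under 0.05, 0 members and 14.6% of all genes (1858) passed for clamped against 0 min. For 60 against 45 min, Hmox1 and Blvrb passed as higher (background 7.76%) and 0 members as lower (5.29%). Between days, within clamped kidneys, Tfrc passed as lower (2.35%) and 0 members as higher (1.75%). In the interaction, 0 members passed (2.21%, 282 genes). The median of the 9 members was -0.24 for clamped against 0 min and 0.06 for 60 against 45 min, beside 0.01 and 0.05 over all genes.

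**Figure D1:**
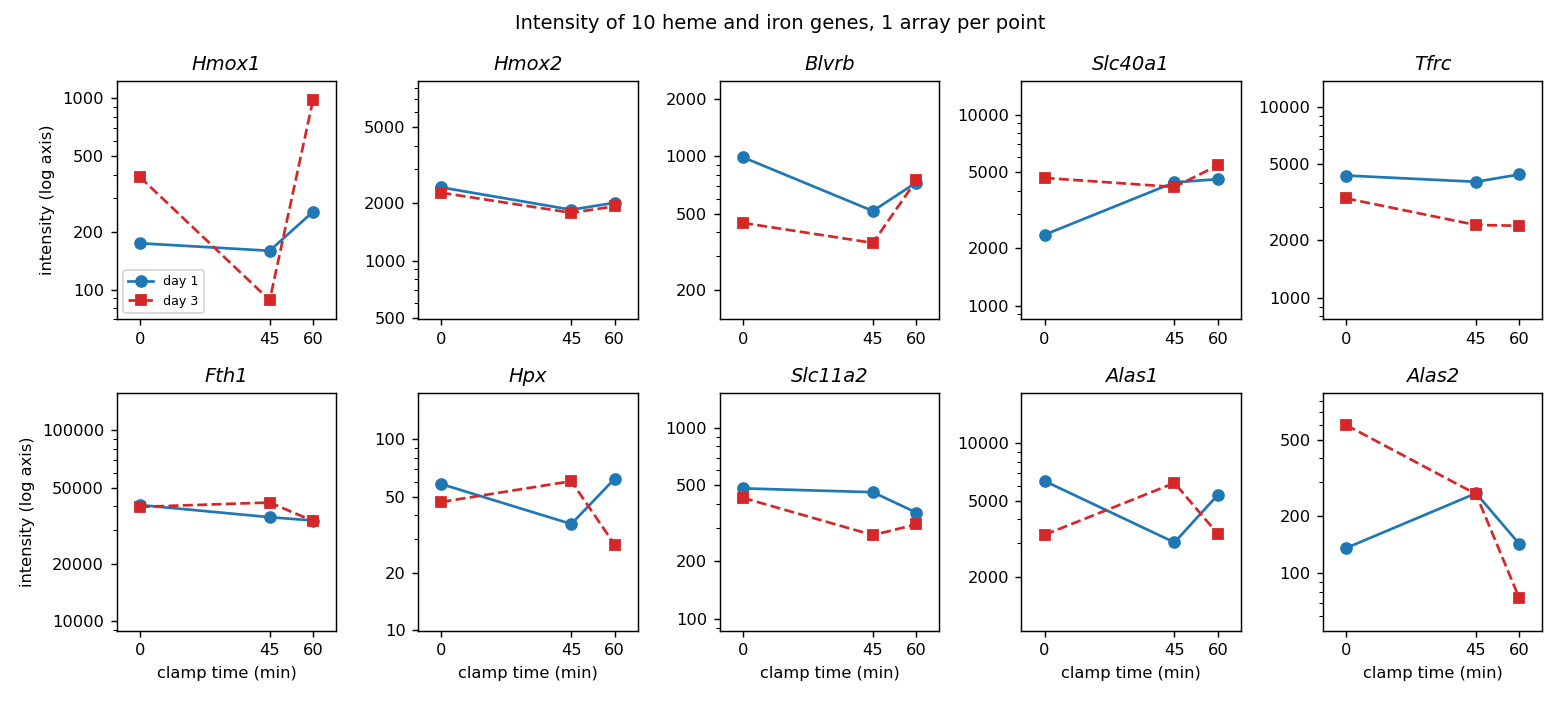
Intensity (vertical, log axis of the same width in each panel) against clamp time in min for each of the 10 genes, with day 1 as circles on a solid line and day 3 as squares on a dashed line; every point is 1 array, so no error bar can be drawn. Hmox1 and Alas2 cover the widest ranges, with 87.9 to 982 for Hmox1 and 73.9 to 597 for Alas2.

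Among the enzymes that break heme down, the inducible heme oxygenase Hmox1 differed most between the clamp times. Hmox1 intensity was 175, 160 and 256 at 0, 45 and 60 min of day 1, and 389, 87.9 and 982 at 0, 45 and 60 min of day 3. On both days the 45 min kidney was the lowest and the 60 min kidney the highest, a pattern held by 495 genes (background 3.89%). The difference of 60 from 45 min was 0.63 at day 1 and 3.26 at day 3, an intensity ratio of 1.60 and 11.2. At day 3 it ranked 2 of 12734 genes from the highest, and the 45 min kidney was below its control (log2 difference -1.96, rank 8 from the lowest, ratio 0.226). Over both days, 60 against 45 min was 1.95 ± 0.62 (SE; limma unadjusted p = 0.0256, adjusted p = 0.358). Leaving out the 45 min array of day 3 gave 0.83, and leaving out the 60 min array of that day gave 1.09. Clamped against 0 min was -0.07 ± 0.54 (SE; limma adjusted p = 0.9695), since the 45 and 60 min kidneys lay on either side of the controls. The 0 min kidneys themselves differed by 1.09 between days, which is as large as several of the clamp differences.

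Macrophages take up dying red cells and express Hmox1, so their markers are given beside it. The summed intensity of 12 macrophage markers was 5864, 9741 and 9661 at 0, 45 and 60 min of day 1, and 10217, 14894 and 36413 at day 3. Much of the sum came from few markers: at 60 min of day 3 Lyz2 read 17100 and Csf1r 6540, and at 0 min of day 1 Csf1r read 2472. Of the 10 markers kept, 7 were above the same-day control in all 4 clamped kidneys (background 16.7%) and 0 were below (15.6%). At day 3, 9 were at least 2-fold higher at 60 than at 45 min (background 5.96%). The 60 min day 3 kidney had the highest sum and the highest Hmox1. At 45 min of both days the sum was above the control and Hmox1 below it, and at day 1 the sum was no higher at 60 than at 45 min while Hmox1 was. The part of macrophage content in the Hmox1 values was not tested.

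Hmox2, the constitutive heme oxygenase, lay lower after clamping by a small amount. Hmox2 intensity was 2418, 1847 and 2009 at 0, 45 and 60 min of day 1, and 2266, 1780 and 1923 at day 3. Every clamped kidney read below both controls, which held for 1 of the 9 members and for 8.94% of genes. The clamped kidneys differed from 0 min by -0.31 ± 0.12 (SE; limma adjusted p = 0.349), the smallest adjusted p among the members in this contrast. Day 3 against day 1 in clamped kidneys was -0.06 ± 0.18 (SE; limma adjusted p = 0.997).

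Blvrb, which reduces biliverdin and flavins, read 987, 517 and 728 at 0, 45 and 60 min of day 1, and 448, 352 and 747 at day 3. As for Hmox1, the 45 min kidney was the lowest on each day, but the 60 min kidney stood below its control at day 1 and above it at day 3. The difference of 60 from 45 min was 0.48 at day 1 and 1.05 at day 3, together 0.77 ± 0.29 (SE; limma unadjusted p = 0.047, adjusted p = 0.380). Without the 60 min day 3 array it was 0.34. The control of day 3 was below that of day 1 (log2 difference -1.11), and clamped against 0 min was -0.24 ± 0.25 (SE; limma adjusted p = 0.692). Across the 6 arrays, which share a scale and 1 array per combination, the correlation of Hmox1 with Blvrb was 0.38. Blvra, the other biliverdin reductase, was 0.07 ± 0.16 (SE) for clamped against 0 min.

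**Figure D2:**
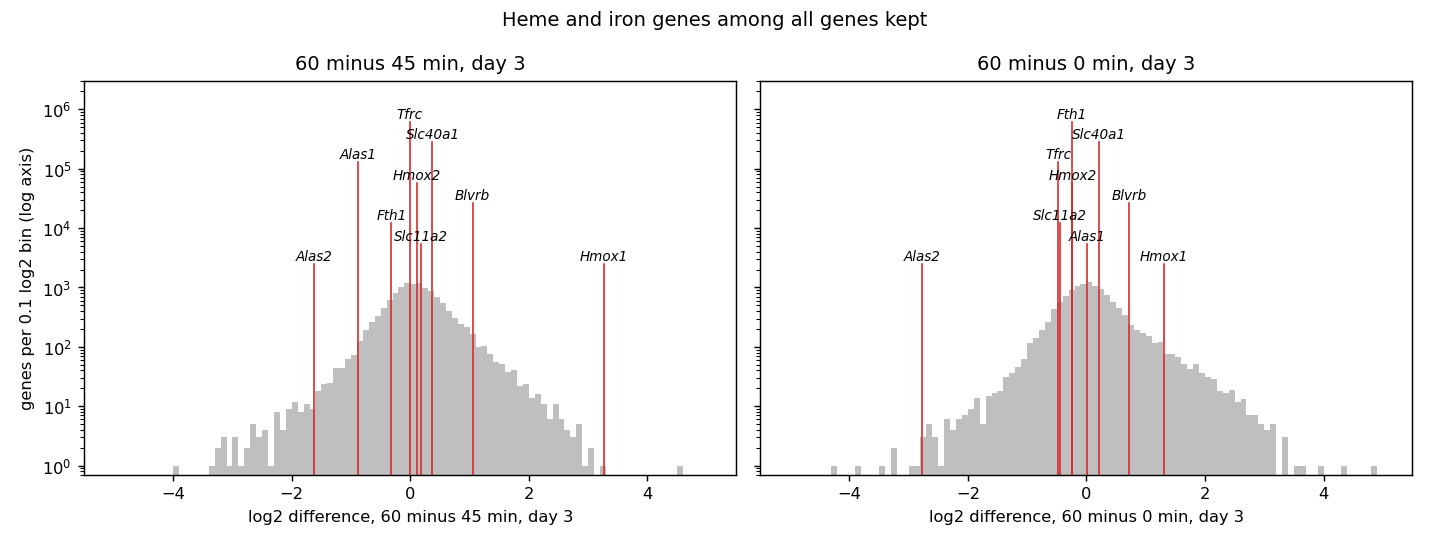
Histogram of all genes kept (grey; genes per 0.1 log2 bin, log axis) by their log2 difference for 60 minus 45 min (left) and 60 minus 0 min (right) at day 3, with red lines at the 9 members kept; the heights of the lines only keep the labels apart and carry no value. Hmox1 stands at 3.26 in the left panel and Alas2 at -2.77 in the right, both in the tails, while most members lie near the centre.

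Hpx, the plasma protein that binds free heme, is made mainly by liver. Hpx intensity was 58.3, 36.0 and 62.1 at 0, 45 and 60 min of day 1, and 47.0, 60.4 and 28.1 at day 3. These are dim values with no order by clamp time, and the mean log2 of 5.98 fell just under the filter at 6.01, so the gene entered no test. With no filter, Hpx was -0.17 ± 0.32 (SE; limma adjusted p = 0.866) for clamped against 0 min. The summed intensity of 8 hepatocyte markers was 33352, 20054 and 17837 at day 1 and 30648, 32740 and 20357 at day 3, nearly all of it from Cyp2e1, which kidney also expresses. Of the 5 markers kept, Apoh and Alb were below the control in all 4 clamped kidneys (background 15.6%) and 0 were above (16.7%).

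The iron exporter ferroportin is encoded by Slc40a1, and its level set the day 1 control apart from the other 5 kidneys. Slc40a1 intensity was 2347, 4412 and 4586 at 0, 45 and 60 min of day 1, and 4655, 4176 and 5412 at day 3. The day 1 clamped kidneys were 0.91 and 0.96 above their control, close to the 2-fold mark, whereas those of day 3 were -0.16 and 0.22 from theirs. The control of day 3 was 0.98 above that of day 1. Over both days the clamped difference was 0.48 ± 0.24 (SE; limma adjusted p = 0.423), which became 0.03 without the day 1 control and 0.93 without the day 3 control. Its interaction with day was -0.90 ± 0.36 (SE; limma unadjusted p = 0.0555, adjusted p = 1). A further probe set of the gene read 573, 911 and 922 at day 1 and 971, 841 and 1643 at day 3. It gave differences of 0.65, 0.67, -0.20 and 0.75, so the signs were shared and the 60 min day 3 value was larger.

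Tfrc, the receptor that brings transferrin-bound iron into cells, was lower at day 3 at each clamp time. Tfrc intensity was 4370, 4053 and 4428 at 0, 45 and 60 min of day 1, and 3318, 2407 and 2386 at day 3. All 3 kidneys of day 3 lay below all 3 of day 1, as for 7.16% of genes. The differences of day 3 from day 1 were -0.40 at 0 min, -0.75 at 45 min and -0.89 at 60 min. In clamped kidneys the difference was -0.82 ± 0.17 (SE; limma unadjusted p = 0.00579, adjusted p = 0.997). Clamped kidneys of day 3 differed from their control by -0.46 and -0.47, while those of day 1 were -0.11 and 0.02 from theirs. Over both days, clamped against 0 min was -0.26 ± 0.16 (SE; limma adjusted p = 0.492). It was -0.04 without the 0 min array of day 3 and -0.47 without that of day 1. The other non-control Tfrc probe sets were dim. One (80.7 to 123) was higher at day 3 at 45 min. Another (23.1 to 40.7) was lower at day 3 at each clamp time, by log2 differences of -0.19, -0.02 and -0.24. The array's control probe sets for Tfrc were dim as well. At 0, 45 and 60 min their differences of day 3 from day 1 were 0.19, -0.41 and 0.05 at the 3' end. They were -0.97, 0.02 and 0.54 at the 5' end, and -0.47, 0.55 and -0.04 in the middle.

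Slc11a2 encodes DMT1, which moves ferrous iron across the membrane of endosomes and of the gut and tubule surface. Slc11a2 intensity was 483, 461 and 361 at 0, 45 and 60 min of day 1, and 431, 275 and 313 at day 3. All 4 clamped kidneys lay below their same-day control, with differences of -0.06, -0.40, -0.62 and -0.44. The fitted difference of clamped from 0 min was -0.38 ± 0.17 (SE; limma adjusted p = 0.389). The 3 other probe sets of the gene were below the control in all 4 clamped kidneys too, with differences from -0.07 to -0.81, so the sign did not depend on the probe set. Clamped kidneys of day 3 against day 1 gave -0.46 ± 0.21 (SE; limma adjusted p = 0.997). Of the 36 pairs of members, Tfrc and Slc11a2 had the highest correlation over the 6 arrays (0.80) and Blvrb and Alas2 the lowest (-0.71). These are the extremes of 36 values over 6 points, and neither was tested.

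Fth1, the heavy chain of ferritin that oxidises iron for storage, varied least. Fth1 intensity was 40609, 35062 and 33680 at 0, 45 and 60 min of day 1, and 39709, 41847 and 33502 at day 3. The 60 min kidneys were the lowest of each day. Under quantile normalization the 45 min kidneys were the lowest instead, with 60 minus 45 min at 0.031 on both days. At 45 min the difference from the control was -0.21 at day 1 and 0.08 at day 3, the latter -0.02 with median centring. For Fth1 clamped against 0 min was -0.16 ± 0.14 (SE; limma adjusted p = 0.612) and 60 against 45 min was -0.19 ± 0.16 (SE; limma adjusted p = 0.622). A second probe set gave differences of -0.21, -0.18, 0.09 and -0.26 from the same-day controls, so there the 45 min kidney was the lowest of day 1.

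**Figure D3:**
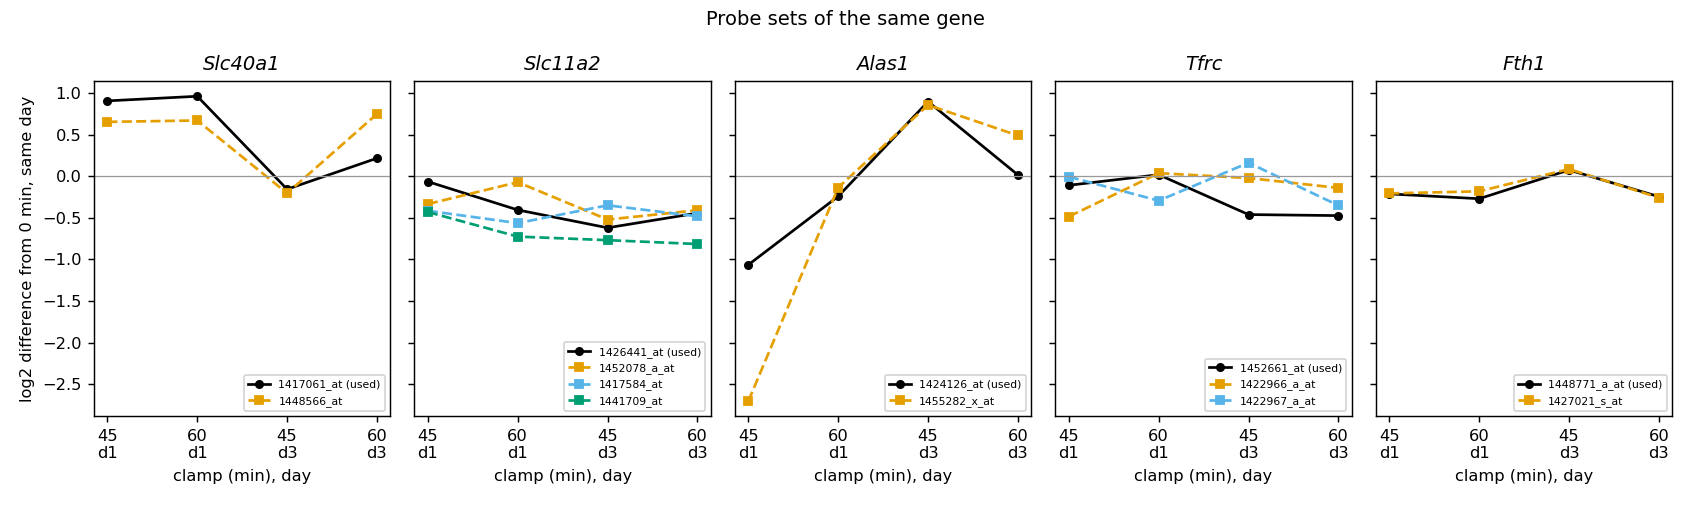
Log2 difference of each clamped array from the 0 min array of the same day, for 45 and 60 min (d1 is day 1 and d3 day 3). Shown are the non-control probe sets of 5 genes that have more than 1, with the probe set used drawn as a solid line. For Slc11a2 all 4 probe sets lie below 0 throughout, while Alas1 at 45 min of day 1 is -1.06 in the probe set used and -2.70 in the other.

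Of the synthases that begin heme synthesis, Alas1, the general form, split the arrays in a way that followed neither clamp time nor day. Alas1 intensity was 6341, 3025 and 5363 at 0, 45 and 60 min of day 1, and 3317, 6193 and 3355 at day 3. On 3 arrays it read 5363 or more, and on the other 3 it read 3355 or less. Clamped kidneys differed from the control by -1.06 and -0.24 at day 1 and by 0.90 and 0.02 at day 3. The last of these was -0.16 with median centring. Averaged over days, clamped against 0 min was -0.10 ± 0.43 (SE; limma adjusted p = 0.938), and the interaction with day was 1.11 ± 0.73 (SE; limma unadjusted p = 0.191, adjusted p = 1). In a second probe set the values were 1564, 227 and 1423 at day 1 and 283, 525 and 404 at day 3. That set had its highest values on the same 3 arrays, and the 45 min day 1 difference was -2.70. The NRF-1 element printed above is a description of the promoter, and no measure of its use was made here.

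Alas2, the form of red cell precursors, was below its control after clamping at day 3 but not at day 1. Alas2 intensity was 136, 262 and 142 at 0, 45 and 60 min of day 1, and 597, 260 and 73.9 at day 3. The day 3 values descended from 0 to 60 min, while the clamped kidneys of day 1 differed from their control by 0.88 and 0.06, the second being -0.0044 with quantile normalization. At day 3 both clamped kidneys were below the control, with log2 differences of -2.77 at 60 min (ratio 0.124; rank 9 from the lowest) and -1.15 at 45 min. The control of day 3 exceeded that of day 1 by 2.02, rank 23 from the highest, and is the highest of the 6. Clamped against 0 min was -0.75 ± 0.58 (SE; limma adjusted p = 0.583), and the interaction with day was -2.43 ± 1.05 (SE; limma unadjusted p = 0.0689, adjusted p = 1). For 60 against 45 min the estimate was -1.22 ± 0.67 (SE; limma adjusted p = 0.482), and without the 60 min day 3 array it was -0.31.

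Markers of red cells are given beside it. Summed over the 7 on the array, their intensity, most of it from Slc4a1, was 1074, 1013 and 621 at 0, 45 and 60 min of day 1, and 1028, 813 and 374 at day 3. Only Slc4a1 and Klf1 passed the filter, both below the control in all 4 clamped kidneys (background 15.6%), and Rhag was under 16 on every array. Of the dim markers, Epb42 was above the control in all 4, at 18.6, 63.7 and 51.1 at day 1 and 23.7, 28.1 and 70.4 at day 3. Slc4a1, which kidney intercalated cells also express, read 766, 652 and 362 at day 1 and 811, 577 and 133 at day 3, and the lineage factor Klf1 ran from 106 to 166. In the controls of day 1 and day 3 the marker sum was 1074 and 1028, of which Slc4a1 gave 766 and 811, and Alas2 was 136 and 597. A sum made mostly of Slc4a1 is no measure of red cells alone. The part of red cell content in the Alas2 values was not tested.

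**Figure D4:**
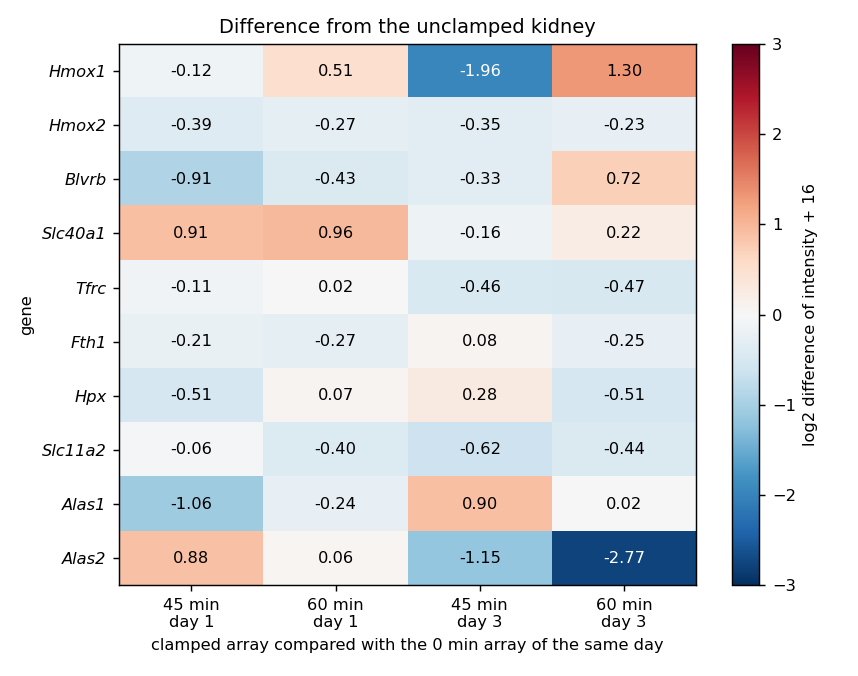
Log2 difference of each clamped array from the 0 min array of the same day (columns) for the 10 genes (rows), printed in each cell and coloured from blue (lower) to red (higher). Hmox2 and Slc11a2 are below 0 in all 4 columns, Alas1 and Alas2 are on opposite sides of 0 on day 1 and day 3 (with values of 0.02 and 0.06 that turn under another scaling), and Hmox1 changes sign between 45 and 60 min on both days.

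Set side by side, the 9 members gave 13 differences of 2-fold or more among 81 single-array comparisons, which have no test. At 45 against 0 min of day 1, Alas1 was lower (background 1.06%) and 0 members were higher (3.57%). At 60 against 0 min of day 1, 0 members were higher (4.39%) or lower (1.71%). At day 3, 45 min showed Hmox1 and Alas2 lower (0.785%) and 0 members higher (1.5%), and 60 min showed Hmox1 higher (7.58%) and Alas2 lower (2.32%). For 60 against 45 min, 0 members were past the fold in either direction at day 1 (1.02% higher, 0.982% lower), and at day 3 Hmox1 and Blvrb were higher (5.96%) and Alas2 lower (2.4%). Day 3 against day 1 had Hmox1 and Alas2 higher (1.71%) and Blvrb lower (1.4%) at 0 min. At 45 min Alas1 was higher (1.19%) and 0 lower (2.06%), and at 60 min Hmox1 was higher (3.01%) and 0 lower (1.09%). These comparisons share arrays, so they are not independent of each other.

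By direction alone, 0 members were above the same-day control in all 4 clamped kidneys (background 16.7%), and Hmox2 and Slc11a2 were below it in all 4 (15.6%). The 60 min kidney exceeded the 45 min kidney on both days for Hmox1, Hmox2, Blvrb and Slc40a1 (35.4%) and was below it for Fth1 and Alas2 (27%), with Fth1 0.031 above it on both days under quantile normalization. Hmox2, Tfrc and Slc11a2 were lower at day 3 than at day 1 at every clamp time (18.9%), though with median centring Hmox2 was 0.03 and 0.05 higher at 0 and 45 min. For Alas1 and Alas2, clamped kidneys lay on one side of the control at day 1 and on the other at day 3 (14.1%), but not for Alas1 with median centring nor for Alas2 with quantile normalization. A range of at least 1 on the log2 scale over the 6 arrays was seen in 5 of the 9 (22%), namely Hmox1, Blvrb, Slc40a1, Alas1 and Alas2. With 9 members, nothing particular to the group is read from these shares.

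For each of those 5, the 3 genes with the most similar pattern over the 6 arrays were found by Pearson correlation, a description over 6 points. It compares the shape and not the size of changes: Frg1 ran from 918 to 1512, beside 87.9 to 982 for Hmox1. Hmox1 was matched most closely by Frg1 (0.992), Tnpo3 (0.991) and Rfxap (0.976), and Blvrb by Scarb2 (0.990), Med30 (0.989) and Zfp51 (0.976). The closest to Slc40a1 were Rabif (0.992), Cap1 (0.986) and Zfp568 (0.985). Alas1 was nearest to Eftud2 (0.996), Strbp (0.992) and Crtam (0.983), and Alas2 to Cox16 (0.990), Efna1 (0.983) and Fancd2os (0.982).

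Other genes of the pathway stood in 8 lists with 79 genes in all; 71 of them could be measured and 64 were kept. None passed an adjusted p under 0.05 with limma for clamped against 0 min (5 higher and 11 lower at an unadjusted p under 0.05). In all 4 clamped kidneys 6 of the 64 were above the same-day control and 21 below, that is 9.38% and 32.8%, beside 16.7% and 15.6% of all genes. With median centring these became 4.69% and 43.8%, beside 10.6% and 25.5%, and with quantile normalization 7.81% and 34.4%, beside 14.3% and 18.8%. Their median for clamped against 0 min was -0.11.

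Of 10 genes kept for heme synthesis, 8 were below the control in all 4 clamped kidneys (background 15.6%) and 0 above (16.7%), with a list median of -0.33. They included Clpx, an unfoldase that acts on the mitochondrial synthase, at -0.46 ± 0.14 (SE; limma adjusted p = 0.267), the glycine carrier Slc25a38 at -0.44 ± 0.13 (SE; limma adjusted p = 0.263) and Uros, uroporphyrinogen synthase, at -0.43 ± 0.13 (SE; limma adjusted p = 0.264). Clpx intensity was 4376, 3283 and 2478 at 0, 45 and 60 min of day 1 and 5170, 4666 and 3702 at day 3, so the order followed clamp time on both days. Among 11 genes of mitochondrial iron and iron-sulfur clusters, 5 were below in all 4 and 0 above (median -0.21). With median centring, 10 of the heme synthesis genes and 8 of the mitochondrial iron genes were below in all 4 (background 25.5%). With quantile normalization these counts were 8 and 6 (18.8%). The scaffold Iscu was -0.42 ± 0.14 (SE), the cysteine desulfurase Nfs1 -0.35 ± 0.13 (SE) and the chaperone Hspa9 -0.26 ± 0.15 (SE), with limma adjusted p from 0.306 to 0.482. Proximal tubule markers, a cell type rich in mitochondria, had 4 of 10 below in all 4 and 0 above (7 with median centring, 3 with quantile normalization), and their part in these values was not tested.

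Heme breakdown, transport and scavenging had 1 of 12 above and 3 below (median -0.06). Lrp1, a receptor for hemopexin-bound heme, was 0.82 ± 0.16 (SE; limma adjusted p = 0.196), the heme and folate carrier Slc46a1 -0.41 ± 0.15 (SE; limma adjusted p = 0.318) and Pgrmc1 -0.26 ± 0.14 (SE; limma adjusted p = 0.440). Iron uptake and reduction had 2 of 12 above and 3 below (median -0.03). Lcn2, which binds iron-carrying siderophores and is known from injured tubule, read 1273, 3911 and 10746 at 0, 45 and 60 min of day 1 and 640, 1423 and 6621 at day 3. Its clamped against 0 min difference was 2.29 ± 0.19 (SE; limma adjusted p = 0.131), and all 6 injured tubule markers kept, Lcn2 among them, were above the control in all 4 clamped kidneys as well. The metal carrier Slc39a8 was -0.57 ± 0.15 (SE; limma adjusted p = 0.230) and Slc22a17, a receptor for Lcn2, -0.32 ± 0.14 (SE; limma adjusted p = 0.390).

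Iron export and the hepcidin axis had 1 of 7 above and 1 below (median 0.46), with Hfe at 0.46 ± 0.18 (SE; limma adjusted p = 0.338) and Neo1 at -0.22 ± 0.14 (SE; limma adjusted p = 0.497). The 3 kept genes of iron storage and the 3 of iron regulatory proteins had 0 with one sign in all 4, with medians of -0.10 and 0.02. Aco1 and Ireb2, the regulatory proteins themselves, were -0.16 ± 0.12 (SE) and 0.10 ± 0.13 (SE). Transcriptional regulators of Hmox1 had 2 of 6 above and 1 below (median 0.10): Maff was 1.57 ± 0.47 (SE; limma adjusted p = 0.269), Mafk 0.33 ± 0.14 (SE; limma adjusted p = 0.368) and Keap1, which restrains NRF2, -0.36 ± 0.14 (SE; limma adjusted p = 0.341). The repressor Bach1 was 0.03 ± 0.17 (SE) and NRF2 itself, Nfe2l2, 0.11 ± 0.18 (SE). In a further list of 9 NRF2 target genes, 1 was above in all 4 and 2 below (median -0.12). Akr1b8 was 1.19 ± 0.16 (SE; limma adjusted p = 0.151), Osgin1 -0.77 ± 0.24 (SE; limma adjusted p = 0.276) and Nqo1 -0.36 ± 0.15 (SE; limma adjusted p = 0.368).

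**Figure D5:**
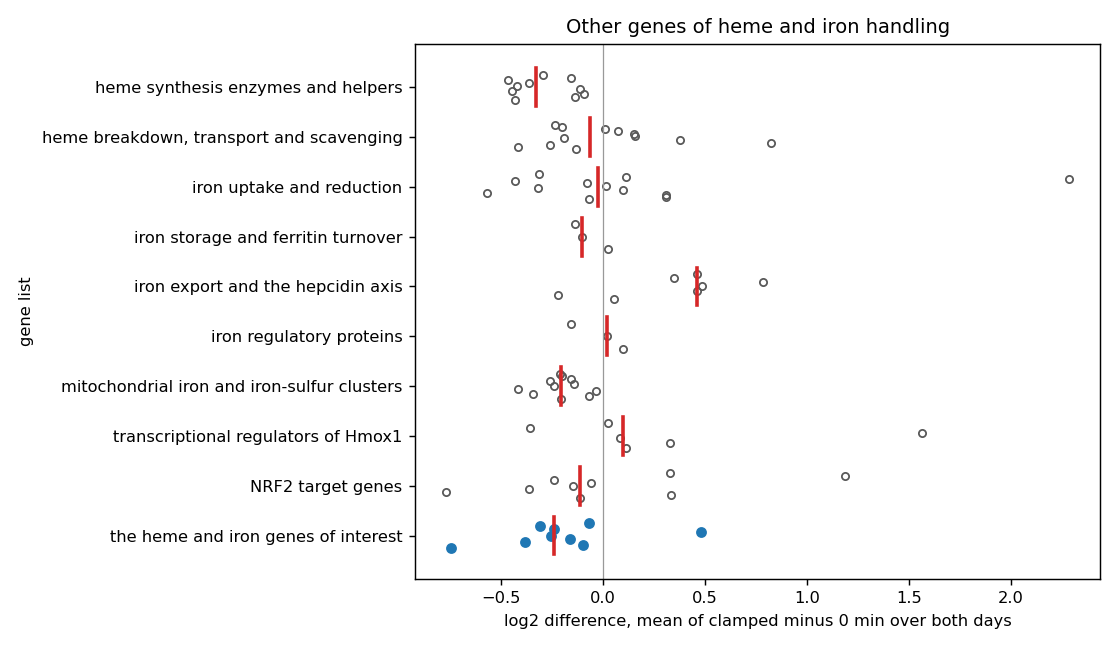
Log2 difference of clamped against 0 min over both days (horizontal) for each kept gene of 9 lists (open circles) and for the 9 members kept (filled circles), with a red bar at each median; the vertical spread within a list only separates points. The heme synthesis genes lie wholly below 0 with a median of -0.33, and the farthest point to the right is Lcn2 at 2.29.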

How the data were processed

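Data of 6 arrays were used as deposited: the authors' values are linear intensities, 1 per probe set and array, and the submitters' processing notes name Affymetrix Expression Console. For it, the version and summary algorithm were not given in the sources used here. Total RNA was extracted with Trizol and labelled with a 3' kit, per the labels' protocols. Depth has no meaning for arrays, and their number (6) limits the precision.

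Of 45101 probe sets, 64 were controls, 34945 named 1 gene, 932 several and 9160 none in the platform annotation. Of those naming 1 gene, 34741 matched the reference gene table, which changed 0 symbols. Each gene took its probe set of highest mean intensity (18 non-control probe sets named a member). Values were log2(intensity + 16), and genes were kept at or above the 40th percentile of mean log2 over non-control probe sets (6.01).

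Tests used limma (version 3.58.1, moderated by eBayes, under R 4.3.3) with Benjamini-Hochberg adjustment over 12734 genes. An additive model of clamp time and day gave clamped against 0 min and 60 against 45 min. The day contrast and the interaction came from a model of clamping (yes or no) by day, where each day's 45 and 60 min kidneys count as replicates. Each fit had 2 residual degrees of freedom. Single-array differences were counted at 2-fold. The scripts were tested on simulated data.

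All 10 members were named. From each list up to 3 kept genes were named, those with one sign in all 4 clamped kidneys and the largest mean difference. For each kept member with a range of at least 1, the 3 most correlated genes were named. Aco1, Ireb2, Bach1, Nfe2l2, Blvra and Epb42 are outside this rule and were chosen after their values were seen. Members and lists were chosen with earlier results of these data known. Alternatives tried were other pseudocounts, filters, normalizations, variance models and probe sets, and leaving out each array. The scaling of list counts was an alternative chosen after seeing the data.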

Additional observations from a re-analysis of the deposited data

Results flagged for a closer look

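Hmox1 was flagged because the 45 min kidney lay below its control and the 60 min kidney above it on both days. That order was held by 3.89% of genes, and opposite sides in either order by 6.09%. At 45 min of day 1 the difference from the control was only -0.12. The difference of 60 from 45 min was 1.95 (limma adjusted p = 0.358). For Alas1, both clamped kidneys lay below the control at day 1 and above it at day 3. Such a change of side between days, in either direction, was held by 14.1% of genes. For Alas1 the difference at 60 min of day 3 was 0.02. The interaction of clamping with day was 1.11 (limma adjusted p = 1), and 0.67 to 1.55 leaving out a clamped array. With median centring the 60 min kidney of day 3 was below its control (-0.16), which ends that pattern. Alas2 showed the reverse, above the control at day 1 and below it at day 3. Its interaction was -2.43 (limma adjusted p = 1), and -3.24 to -1.62 leaving out a clamped array. Each day has 1 control, which this fit cannot do without, so these ranges do not show how far the interactions rest on the controls. With quantile normalization the 60 min kidney of day 1 was -0.0044 from its control, which ends that pattern too. None of these differences passed its test, and with 1 array per combination no replicate shows whether they would recur.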

How the results depend on the processing

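No paired analysis was possible because the labels carry no replicate numbers to pair arrays by; arrays of the same day are compared through the day term of the model. Of 410 values with a test, 388 kept their sign and their side of the threshold and 22 changed sign, and 0 passed an adjusted p under 0.05 under any alternative. Of 720 single-array values, 678 kept their sign and their side of the 2-fold mark and 42 did not. Genes past an adjusted p under 0.05 for clamped against 0 min numbered 0, but 1 with median centring, 75 with a robust variance trend and 0 to 200 leaving out an array (200 without the 45 min day 3 array). Members with one sign in all clamped kidneys numbered 2, but 4 with median centring and 2 to 7 leaving out an array, where fewer comparisons must share the sign. Leaving out an array gave, for clamped against 0 min, -0.63 to 0.49 for Hmox1, -0.67 to 0.19 for Blvrb, -0.65 to 0.46 for Alas1, -1.96 to 0.47 for Alas2, 0.03 to 0.93 for Slc40a1, -0.47 to -0.04 for Tfrc, -0.53 to -0.23 for Slc11a2 and -0.24 to -0.08 for Fth1. For 60 against 45 min it gave -0.95 to 0.89 for Alas1, -0.35 to 0.19 for Slc11a2, -0.10 to 0.22 for Tfrc and -0.13 to 0.56 for Slc40a1. Hmox2 in clamped kidneys of day 3 against day 1 ran from -0.12 to 0.0027. For 60 against 45 min, quantile normalization turned Fth1 to 0.031 and Alas1 to 0.024, averaging all probe sets of a gene turned Tfrc to -0.047 and Alas1 to 0.54, and single other probe sets turned Alas1 to 1.10, Slc11a2 to 0.19 and Tfrc to -0.40. The cause was not tested. Median centring moved the median of all genes by -0.17 for 60 against 0 min of day 3 and by 0.12 for the controls of day 3 against day 1, and the higher share of 2-fold differences from 76.6% to 59.1% and from 55.1% to 70.2%. That share also went from 65.6% to 48.7% for 45 against 0 min of day 3 and from 36.6% to 50.8% for day 3 against day 1 at 45 min.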
